A study of Homo sapiens with 4 samples.

Results

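LINC01419, LINC00326, SLCO4A1-AS1 and AL035541.1 are long noncoding RNAs, and SLCO4A1 is the protein-coding gene within which SLCO4A1-AS1 lies on the opposite strand. These 5 genes, of the 32991 genes listed in all 4 tables of single-cell counts from the melanoma line A375, were selected on their measured levels: each was detected in one library of the line and close to background in another. Those levels are therefore given as a description, without a test. A375 is an established melanoma cell line with an activating BRAF mutation. The untreated cells (S) were compared with cultures that the authors describe as resistant, made by 10 to 14 days of treatment. The treatment was vemurafenib, an inhibitor of mutant BRAF (RV), or vemurafenib with the MEK1/2 inhibitor cobimetinib (RVC) or trametinib (RVT). All inhibitors were given below their median inhibitory concentration and were withdrawn 24 h before capture, and each condition is 1 droplet library of the same line. With 1 library per condition no difference has a replicate check, so the intervals below cover counting error only, and differences between conditions cannot be told apart from differences between libraries.

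Long noncoding RNAs are transcribed like messenger RNAs and are often spliced and polyadenylated, but they carry no long reading frame. Many are made in few tissues, and their levels can differ widely between cells of one lineage. An antisense RNA is read from the strand opposite to that of a coding gene and can share part of its exons with it. SLCO4A1 encodes an organic anion transporter of the plasma membrane (OATP4A1) that takes up thyroid hormones and prostaglandins. LINC01419 has been studied mainly in carcinomas, and AL035541.1 is known only by the name of its genomic clone.

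After filtering, S held 6334 cells, RV 4177, RVC 7628 and RVT 8446, with medians of 8799.5, 11553, 3958 and 2864 UMIs (unique molecular identifiers, 1 per captured RNA molecule) per cell. A list of 33694 genes was used for S and RV and one of 33538 genes for RVC and RVT, so S and RV differed from RVC and RVT in gene annotation and in depth as well as in treatment. Of the neural crest and melanocyte markers, SOX10 had 86.5 counts per 1000000 UMIs (CPM) in S, 39.9 in RV, none in RVC and 19.7 in RVT, MITF ranged from 8.13 to 41.9, and PMEL, MLANA, TYR and DCT under 0.5 in every library. ERBB3 stood at 65.7, 14.0, 0.303 and 0.630 CPM and S100B at 32.8, 6.96, 0 and 0.236 in the same order, both low in the same libraries as SLCO4A1, and NGFR was highest in RV (1.09, 11.3, 0.455 and 0). The pigment genes that define melanocytes were thus near 0 in all 4 libraries, and SOX10 had no UMI in RVC. The 6 fibroblast markers summed to 2.58 CPM for S and 2.19 for RV, and to 167 for RVC and 43.3 for RVT. None of those 6 was at 0 in RVC, where COL3A1 stood at 121 CPM against 0 in S and RV. The sum in RVC was mainly COL3A1, with LUM at 22.6 and DCN at 14.8 CPM. The other 3 were under 10 CPM there: COL1A1 at 2.91, COL1A2 at 0.273 (9 UMIs) and PDGFRB at 5.73. Immune markers summed to at most 0.782 CPM and endothelial markers to at most 1.33 CPM in any library. In S, RV, RVC and RVT, epithelial markers summed to 2082, 2335, 202 and 353 CPM and mesenchymal markers to 3135, 3395, 1694 and 1052. The epithelial sums came mainly from keratins. In the same order KRT81 stood at 1181, 596, 0.0303 and 93.4 CPM and KRT18 at 770, 1545, 57.1 and 142. KRT8 stood at 132, 194, 144 and 117 CPM. EPCAM was at most 0.114 CPM and CDH1 had no UMI in any library, so the sums do not show an epithelial state. The mesenchymal genes moved both ways, as VIM at 2433 CPM in S and 559 in RVC and FN1 at 11.7 and 90.4. The part of these marker differences in the members' levels was not tested.

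The members lie on 3 chromosomes, and LINC01419 and LINC00326 each stand alone on theirs (positions from GENCODE 29, build GRCh38). LINC01419 (ENSG00000253898) is a lincRNA, a long noncoding RNA between other genes, on the plus strand of chr8 from 83403758 to 83408900, with 1 transcript of 2 exons.

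LINC00326 (ENSG00000231023) is a lincRNA on the plus strand of chr6 from 133088080 to 133106578. SLCO4A1 (ENSG00000101187) runs along the plus strand of chr20 from 62642445 to 62685785. SLCO4A1-AS1 (ENSG00000232803) lies on the minus strand inside it, from 62663019 to 62666724. The pair overlap in 346 exonic bases, which are 22.6% of the 1534 exonic bases of SLCO4A1-AS1. The sources used here do not state whether strand was used in counting, so reads from the shared bases cannot be assigned to one gene or the other. AL035541.1 (ENSG00000227297) is a lincRNA on the minus strand of chr20 from 57599695 to 57601200, 5.04 Mb from SLCO4A1. Among genes with a position in the GENCODE release used, none listed in only 1 of the 2 annotations overlapped a member. Listed genes without a position there could not be searched, and the members' own gene models were not compared between the annotations. The part of annotation in the members' levels was therefore not tested.

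Reads of this droplet chemistry start at poly(A) tails, so the last bases of a transcript lie where its UMIs are counted. They are shown for 3 of the noncoding members as 120 bases read 5′ to 3′ on the transcript strand, with an exact polyadenylation signal (AATAAA or ATTAAA) in capitals.
LINC00326, chr6:133106459-133106578, plus strand: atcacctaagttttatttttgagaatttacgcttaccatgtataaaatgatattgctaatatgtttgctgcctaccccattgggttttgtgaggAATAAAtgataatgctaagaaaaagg
SLCO4A1-AS1, chr20:62663031-62663150, minus strand: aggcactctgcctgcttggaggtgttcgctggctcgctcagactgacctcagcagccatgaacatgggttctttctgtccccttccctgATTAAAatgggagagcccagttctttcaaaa
AL035541.1, chr20:57599695-57599814, minus strand: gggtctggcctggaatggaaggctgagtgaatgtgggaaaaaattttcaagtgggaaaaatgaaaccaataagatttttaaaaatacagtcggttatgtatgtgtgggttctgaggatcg
The signal of LINC00326 began 26 bases before the annotated end, that of SLCO4A1-AS1 31 bases before it, and AL035541.1 had neither hexamer in its window. Of 13212 lncRNA transcript ends of this length, 50.1% held either hexamer, so its presence does not set the members apart.

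The promoter of SLCO4A1-AS1, the member with no UMI in RVC, is printed because the other 4 members had no entry in the promoter table used. It covers 250 bases before and 50 bases after the RefSeq start of the gene (GRCh38.p14, chr20:62666572-62666871, minus strand). The capitals mark a CACGTG E-box that begins 126 bases before that start. The GENCODE gene starts at 62666724, further upstream and inside this window, so the distance holds for the RefSeq start only.
SLCO4A1-AS1 promoter: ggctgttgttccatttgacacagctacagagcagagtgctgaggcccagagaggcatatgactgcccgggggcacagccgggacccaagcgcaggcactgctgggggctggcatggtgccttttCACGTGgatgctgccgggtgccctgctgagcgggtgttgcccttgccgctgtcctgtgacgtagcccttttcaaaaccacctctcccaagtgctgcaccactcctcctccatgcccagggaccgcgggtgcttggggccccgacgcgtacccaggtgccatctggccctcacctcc
Both strands were searched for TGANTCA (the AP-1 motif), the E-box CACGTG, the E-box CATGTG, the SOX-like ACAAAG, the SOX-like ACAATG, the GC box GGGCGG, the TATA box TATAAA and the ETS motif CCGGAAGT. CACGTG, which reads the same on both strands, was the one motif matched, and 7.26% of 35116 promoters of this length held it. The window was 64.7% G and C against a median of 58.7% over those promoters.

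LINC01419 stood at 187 CPM in S (95% exact Poisson interval 184 to 191, 10969 UMIs), 0.114 in RV (0.0420 to 0.249, 6 UMIs), 784 in RVC (774 to 793, 25844 UMIs) and 0.748 in RVT (0.451 to 1.17, 19 UMIs). S and RVC were high and RV and RVT near background, so the 2 libraries treated with a MEK inhibitor were not alike. RVC stood 4.18-fold above S (4.09 to 4.28), whereas RVT stood 1047-fold below RVC (670.5 to 1740). Among 12679 lncRNA genes ordered by CPM, not divided by length because each molecule is counted at its tail, LINC01419 was number 8 in S and number 3 in RVC, but number 2480 in RV and 1243 in RVT. Per UMI, RVT stood 6.54-fold above RV (2.51 to 20.02), a ratio that rests on 19 and 6 UMIs. The interval takes UMIs as independent, although 15 of the 19 lay in 5 cells. Counted by cells, at unequal depth, 0.107% of RVT cells and 0.120% of RV cells held a UMI, so the share was not higher in RVT.

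**Figure D1:**
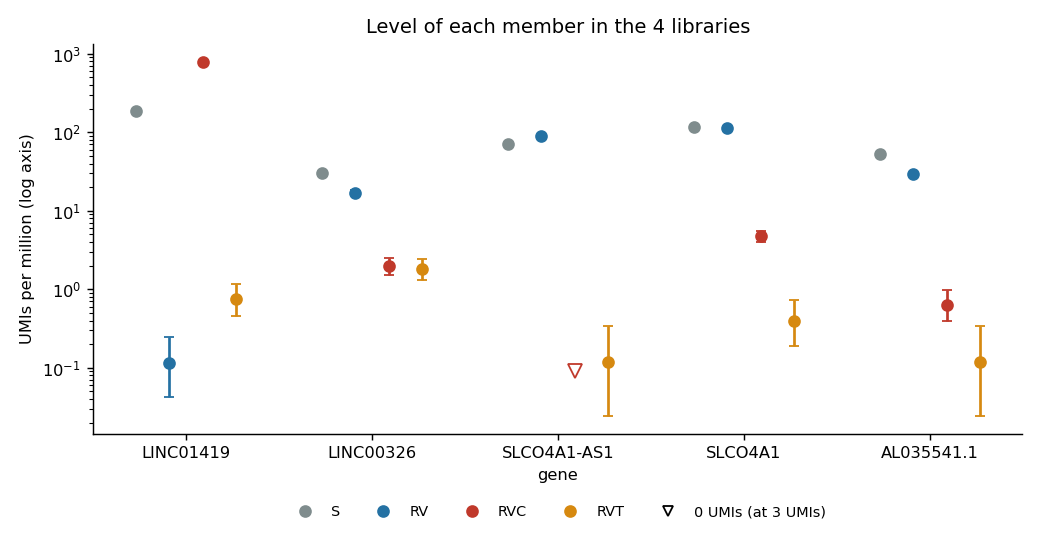
Level of each of the 5 members in the 4 libraries, in CPM on a log axis, with exact 95% Poisson intervals, and the open triangle stands for a library with 0 UMIs, drawn at the level of 3 UMIs. LINC01419 is high in S and RVC, and the 3 members on chromosome 20 are high in S and RV.

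SLCO4A1 showed another split. Its level was 117 CPM in S (114 to 120.1, 6861 UMIs), 114 in RV (111 to 117, 5972 UMIs), 4.73 in RVC (4.02 to 5.53, 156 UMIs) and 0.394 in RVT (0.189 to 0.724, 10 UMIs). S and RV differed by less than counting error (RV over S 0.971, 0.938 to 1.005), and both combined treatments were low. RVT was in turn 12.0-fold below RVC (6.36 to 25.5).

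Its antisense transcript SLCO4A1-AS1 stood at 70.8 CPM in S (68.7 to 73.0, 4143 UMIs), 89.6 in RV (87.0 to 92.2, 4700 UMIs), 0 in RVC and 0.118 in RVT (0.0244 to 0.345, 3 UMIs). Unlike SLCO4A1 it was higher in RV than in S, by 1.27-fold (1.21 to 1.32). No UMI of SLCO4A1-AS1 was found among 32974745 UMIs of RVC, in which 3 UMIs would be 0.0910 CPM. RVC was therefore at least 778-fold below S and at least 985-fold below RV, the floor being 3 UMIs in the library. The coding gene kept 156 UMIs in the same library.

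AL035541.1 stood at 53.1 CPM in S (51.3 to 55.0, 3109 UMIs), 29.1 in RV (27.7 to 30.6, 1529 UMIs), 0.637 in RVC (0.394 to 0.973, 21 UMIs) and 0.118 in RVT (0.0244 to 0.345, 3 UMIs). It was the one chromosome 20 member that was lower in RV than in S, by 1.82-fold (1.71 to 1.94). LINC00326 stood at 30.0 CPM in S (28.6 to 31.4, 1756 UMIs), 17.1 in RV (16.0 to 18.3, 897 UMIs), 1.97 in RVC (1.52 to 2.51, 65 UMIs) and 1.81 in RVT (1.33 to 2.42, 46 UMIs). RV was 1.75-fold below S (1.62 to 1.90), a factor close to that of AL035541.1. RVC and RVT did not differ beyond counting error (RVT over RVC 0.919, 0.616 to 1.36). LINC00326 also lay nearest to the 10-fold threshold used for counting: it was 15.2-fold lower in RVC than in S and 16.6-fold lower in RVT than in S, just inside, and 8.67-fold lower in RVC than in RV and 9.44-fold lower in RVT than in RV, just outside.

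Counted at 10-fold, 1 of the 5 members (LINC01419) was lower in RV than in S, 4 were lower in RVC than in S, and 5 were lower in RVT than in S. Among all genes that reached 10 CPM in the higher of both libraries, 0.164% were lower by as much in RV than in S, 3.05% in RVC than in S and 2.95% in RVT than in S. Against RV, 3 members were lower in RVC and 3 in RVT, beside 3.56% and 3.17% of all genes. Since the members were chosen by these same ratios, nothing is read from the comparison with the background. Of the measured lncRNAs alone, 1.09% were 10-fold lower in RV than in S, 6.48% in RVC than in S and 5.60% in RVT than in S, beside 0.135%, 2.94% and 2.87% of protein-coding genes. In the other direction 0, 4.17% and 5.60% of the lncRNAs were 10-fold higher, and 0.0338%, 1.44% and 2.29% of protein-coding genes. The lncRNA shares include the noncoding members, which were selected by these ratios, so no balance of falls and rises is read from them. The ratios to S share the S library, and the ratios to RV share the RV library. The log2 ratio to S had a median over all measured genes of 0.03 for RV, 0.20 for RVC and 0.41 for RVT.

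Within the untreated cells UMIs of LINC01419 were widespread and uneven, and the part of free RNA in this was not tested. A UMI was found in 68.7% of S cells (exact binomial 67.5 to 69.8), 43.4% held 2 or more, 8.48% held 5 or more, and the highest cell held 17. If every cell had made LINC01419 at one rate per UMI, 79.3% of cells would have held a UMI. The 10% of cells that held most LINC01419 carried 35.1% of its UMIs. Counting noise and unequal depth also raise this share, and its value at a single rate was not computed. In RVC the shape was alike at a higher level: 80.5% of cells held a UMI where one rate gives 91.2%, 27.0% held 5 or more, and the highest cell held 32. In RV a UMI was found in 5 of 4177 cells (0.120%) and in RVT in 9 of 8446 (0.107%).

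**Figure D2:**
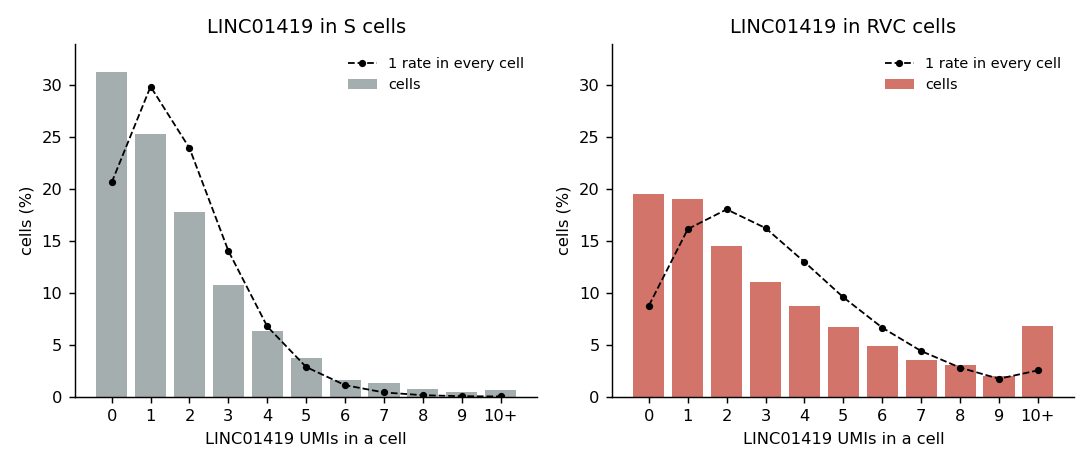
Share of S cells and of RVC cells, in percent, by the number of LINC01419 UMIs in the cell; bars are the data and the dashed line is what 1 rate per UMI in every cell gives. Both libraries hold more cells with no UMI (31.3% against 20.7% in S, 19.5% against 8.79% in RVC) and more cells with 10 or more than 1 rate gives.

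With every cell thinned to 1500 UMIs, so that depth is equal, LINC01419 was found in 23.1% of S cells and 59.3% of RVC cells (397 shallower RVC cells left out). In thinned RVT 0.0395% did (844 cells left out), and the few UMIs of RV were lost on thinning. Unthinned, the other members were each present in a minority or a small majority of S cells: SLCO4A1 in 52.0%, SLCO4A1-AS1 in 37.2%, AL035541.1 in 32.6% and LINC00326 in 21.7%. In RV the shares were 56.8%, 46.8%, 24.1% and 16.3%. Every one of these 8 shares was below the share that one rate per UMI gives, by the widest margin for SLCO4A1-AS1 in RV, where 64.4% would have held a UMI. Single RV cells held up to 25 UMIs of SLCO4A1-AS1 and 21 of SLCO4A1.

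In S, LINC01419 kept one level across cells of different depth, whereas the other members were lower in deeper cells. With S cells ordered by UMIs per cell and divided into 4 equal groups, LINC01419 stood at 191, 185, 183 and 191 CPM from the shallowest to the deepest group. SLCO4A1 stood at 183, 142, 115 and 76.5 CPM, SLCO4A1-AS1 at 122, 86.6, 64.8 and 44.0, AL035541.1 at 70.9, 62.3, 55.0 and 38.9, and LINC00326 at 42.2, 37.4, 31.4 and 19.5. In RV the same 4 genes fell from the shallowest to the deepest group, SLCO4A1 from 224 to 67.3 CPM and SLCO4A1-AS1 from 179 to 60.1. Ordered by the mitochondrial share of UMIs, S cells with the highest share held more of these 4 genes, as SLCO4A1 at 145 CPM in the top group and 90.9 in the lowest, while LINC01419 ranged from 179 to 197. In RVC, LINC01419 stood at 756, 811, 845 and 740 CPM from the shallowest to the deepest group, with the third above the first and the fourth beyond their intervals (826 to 864 against 728 to 785 and 726 to 754). It was 570 CPM in the group with the lowest mitochondrial share and 918 in that with the highest. The part of depth and RNA quality in the relations between genes described next was not tested beyond thinning. For correlations between members, S cells with at least 7000 UMIs were also taken alone.

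**Figure D3:**
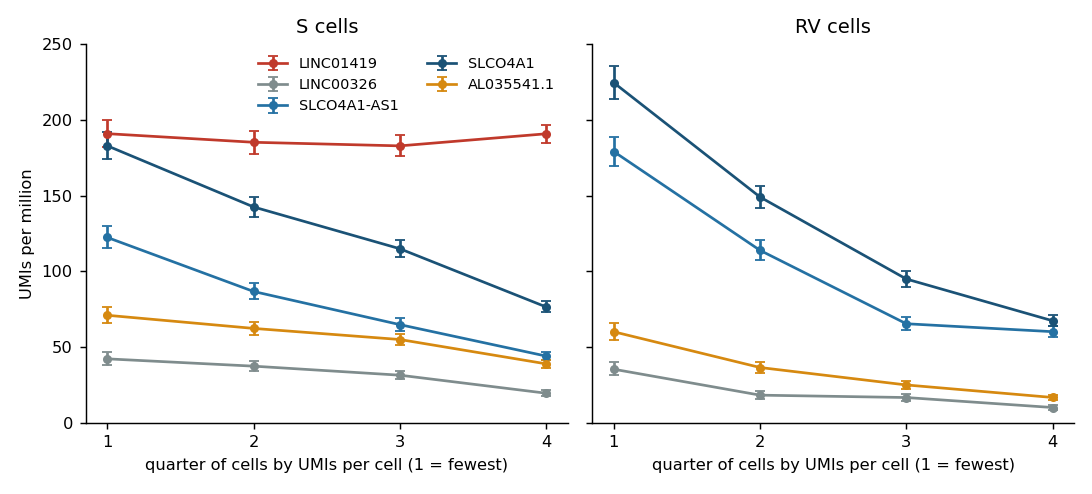
Level of the members, in CPM, in 4 equal groups of S cells and of RV cells ordered by total UMIs per cell, with exact 95% Poisson intervals. SLCO4A1, SLCO4A1-AS1, AL035541.1 and LINC00326 fall from the shallowest to the deepest group, and LINC01419 in S does not.

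SLCO4A1 and SLCO4A1-AS1 were found in the same cells more often than their shares give. In S cells thinned to 1500 UMIs, 221 cells (3.49%) held both where the product of the shares is 1.73%, a ratio of 2.02, and in RV the ratio was 2.03. The 346 shared exonic bases cannot be told apart from expression in the same cells as the source of this. The annotated 3′ end of SLCO4A1 lies 19061 bases beyond the 5′ start of SLCO4A1-AS1, and the part of the shared bases was not tested. SLCO4A1 was also found with AL035541.1, with which it shares no base, 1.46 times as often in S and 2.03 times in RV. LINC00326, on another chromosome, was found with SLCO4A1 1.39 times as often in S. LINC01419 was found with each of the others in S at 0.998 to 1.15 times the product. The chromosome 20 members and LINC00326 thus went together across cells, and LINC01419 went with them least.

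Over 6334 S cells the Pearson correlation of log(1 + UMIs per 10000) between SLCO4A1 and SLCO4A1-AS1 was 0.43, and over RV cells it was 0.55. With S cells thinned to 1500 UMIs it was 0.17, and among S cells with at least 7000 UMIs it was 0.43. The unthinned value was the highest of any gene with either member among 5728 genes, for which the middle 98% of values with SLCO4A1 ran from -0.12 to 0.13. Cells of one library share its depth and free RNA, so all values of this kind are descriptions over cells and not over samples. CD74, the invariant chain of MHC class II, stood among the 10 highest for all 5 members, at 0.30 with AL035541.1, 0.29 with SLCO4A1, 0.23 with SLCO4A1-AS1, 0.22 with LINC01419 and 0.21 with LINC00326. SLC26A2, a sulfate transporter, was the other gene among the 10 highest for all 5. SPANXB1, a cancer-testis antigen, was among the 5 lowest for all 5 (-0.27 with SLCO4A1 and -0.20 with LINC01419), and the keratins KRT7 and KRT81 were among the 5 lowest for 4 each. SPANXB1 has near-identical copies, so the counting may have split its reads.

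Of the 15 genes highest or lowest with SLCO4A1 in S, all kept their sign in RV, but not all kept their size. SNRPB2 had 0.25 in S and 0.084 in RV, and KRT81 had -0.24 and -0.14. In RV, SLCO4A1 stood at 113 CPM in cells with an SNRPB2 UMI and at 133 in those without. Those cells differed in depth, with medians of 11772.5 and 8513 UMIs. With SLCO4A1 the S and RV values were 0.27 and 0.44 for COL9A3, a type IX collagen chain, 0.29 and 0.36 for the calcium-binding S100A6, 0.27 and 0.32 for RAMP1, a partner of the calcitonin-like receptor, and 0.22 and 0.38 for the matrix protein SPARC. The 3 lowest in S were KRT7 (-0.28 in S and -0.34 in RV), the secretory granule protein SCG5 (-0.28 and -0.26) and SPANXB1 (-0.27 and -0.39). SLCO4A1-AS1 had 0.24 and 0.41 with COL9A3 and 0.22 and 0.46 with the galectin LGALS1. With AL035541.1, HLA-DRA of MHC class II had 0.21 in S and 0.33 in RV, and the receptor kinase ERBB3 0.17 and 0.24.

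Of the 10 genes highest with LINC01419 in S, 8 kept a value above 0 in RVC, mostly a smaller one. RVC cells were shallower, and several of these genes were also lower there. HLA-DRA stood at 111 CPM in S and 13.0 in RVC, SLC26A2 at 205 and 15.5 and CD74 at 807 and 162. TIMP1 and HIST1H4C were higher in RVC (957 and 1869.7 CPM, 3238 and 6402 CPM), and TIMP1 had 0.15 in S and 0.056 in RVC. The part of fewer UMIs in the smaller values was not tested. SNRPB2, a small nuclear ribonucleoprotein of the spliceosome, had the highest correlation in S (0.24) and -0.095 in RVC. The nucleolar protein NPM1 had 0.17 in S and -0.23 in RVC, and CD74 0.22 and 0.085. KRT81, the lowest in S at -0.25, had 0.0303 CPM in RVC and could show no relation there. SPANXB1 at 0.243 CPM and C19orf33 at 4.00 CPM, also among the 5 lowest in S, had little UMI support in RVC either. The rest of those 5 were measured in RVC. IGFBP6, at 42.3 CPM there, had -0.21 in S and 0.077 in RVC, and TPM1, at 145 CPM, had -0.19 and 0.0071. HIST1H4C, a histone gene of S phase, was the one of the 10 with the same value in both, 0.19. The highest genes in RVC itself were the ribosomal RPL37A (0.34) and UTS2, the urotensin 2 precursor (0.32), and the lowest were C15orf48 (-0.29) and FABP6 (-0.27). Of 14 cell cycle genes, 13 had a value above 0 with LINC01419 in S and 12 in RVC, all weak: the range was -0.0011 to 0.13 in S, with a median of 0.06, and -0.042 to 0.13 in RVC, with a median of 0.03.

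**Figure D4:**
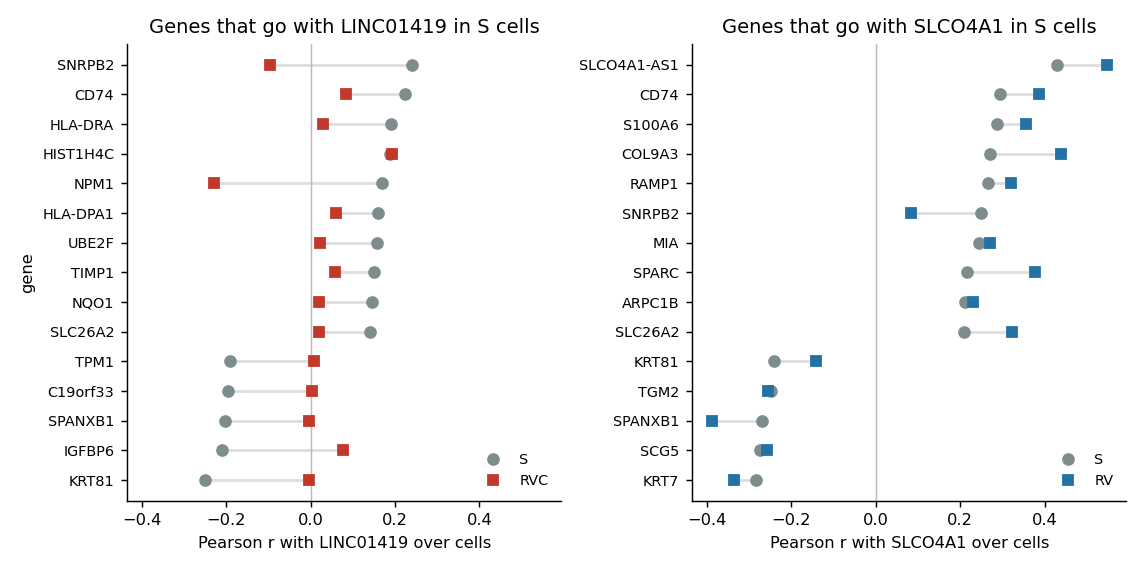
Pearson correlation over cells of the 10 genes highest and the 5 lowest in S, for LINC01419 (S and RVC cells) and for SLCO4A1 (S and RV cells); each point is 1 gene in 1 library. The values for SLCO4A1 keep their sign in RV, and most values for LINC01419 lie near 0 in RVC, a shallower library. KRT81, SPANXB1 and C19orf33 are themselves at 4.00 CPM or less there, and IGFBP6 and TPM1 are at 42.3 and 145 CPM.

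The same relations appear as levels when S cells are divided by a partner gene. SLCO4A1 stood at 153 CPM in the 4016 S cells without a SPANXB1 UMI and at 65.2 in the 2318 cells with one. For AL035541.1 these levels were 70.8 and 27.7 CPM, for LINC00326 40.3 and 15.1, and for LINC01419 218 and 143. Cells with SPANXB1 were deeper, with a median of 9666.5 UMIs against 8301.5. In RV the 168 cells without SPANXB1 held SLCO4A1 at 346 CPM, against 107 in the 4009 cells with it (medians of 7707 and 11698 UMIs). Where depth was nearly equal, as for CD74 (medians of 8736 UMIs in 5231 cells with it and 9115 in 1103 without), SLCO4A1 stood at 132 and 47.7 CPM, AL035541.1 at 60.6 and 19.02 and LINC01419 at 199 and 136. S cells with a UMI of SOX10, a neural crest transcription factor, held SLCO4A1 at 140.4 CPM against 93.7 in those without.

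Few genes shared the library pattern of LINC01419. With S and RVC each at least 10-fold above both RV and RVT, ASS1, the argininosuccinate synthase of arginine synthesis, was the one other gene, at 28.1, 0.934, 27.6 and 0.670 CPM in S, RV, RVC and RVT. At 2-fold the pattern held 9 genes, among them the chemokine CXCL1 (143, 66.8, 145 and 15.5 CPM in the same order), the protease inhibitors TFPI2 (66.3, 25.2, 80.6 and 6.77) and TIMP1 (957, 450.5, 1869.7 and 365), and the noncoding AC003092.1 (10.5, 1.51, 24.3 and 0.276). The reverse pattern held 18 genes at 2-fold, among them the melanocyte factor MITF (9.77, 20.01, 8.13 and 41.9) and the matrix protein THBS1 (32.5, 75.1, 10.5 and 657). By root mean square difference of the 3 log2 ratios to S, over 3726 genes, ASS1 was also the nearest gene to LINC01419, at 3.84 log2 units, which is not close.

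The pattern of SLCO4A1, SLCO4A1-AS1 and AL035541.1, with S and RV each at least 10-fold above RVC and RVT, was shared by 76 genes in all, against 22 with the reverse. The nearest genes to SLCO4A1 were MFAP2, a microfibril protein (0.38 log2 units), and CYB5R2, a cytochrome b5 reductase (0.41), with AL035541.1 at 1.17. CYB5R2 stood at 0.0788 CPM in RVT, under the level of 3 UMIs, so its distance is only rough. The genes nearest to AL035541.1 included SF3A2 (0.85), POLR2J3 (0.86) and ALDOA (0.95), distances that rest on 3 UMIs of the member in RVT. SCO2 and POLR2J3 ranked nearest to SLCO4A1-AS1, but no distance is given, since a member with 0 UMIs in RVC and 3 in RVT sets only a bound, and SCO2 itself had 0 UMIs in RVT. Overlaps could be searched only among genes with a position in the GENCODE release used. POLR2J3, ALDOA and SCO2 overlap on their strand a gene listed in only 1 of the 2 annotations. For the members no overlap with such a gene was found. Of 108 genes at least 10-fold lower in both RVC and RVT than in S, 7 (6.48%) overlapped such a gene, against 56 of 5729 genes (0.977%) with at least 10 CPM in S. LINC00326 had closer neighbours, EIF3J at 0.16 and UBALD1 at 0.23 log2 units.

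Genes beside the members on the chromosome did not all follow them. Within 500 kb of LINC01419, 2 of 6 annotated genes were listed in all tables, and neither reached 1 CPM. Beside LINC00326, EYA4 stood at 13.6, 8.23, 10.6 and 15.1 CPM in S, RV, RVC and RVT, with no fall like that of the member. Beside AL035541.1, PMEPA1, an inhibitor of TGF-beta signalling 47.2 kb away, stood at 217, 71.3, 51.2 and 18.7 CPM, and RAE1 at 25.4, 24.2, 18.8 and 19.3.

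SLCO4A1 had 14 neighbours with at least 10 CPM in a library, SLCO4A1-AS1 included. COL9A3, 130.5 kb away, stood at 220.1, 135, 0.121 and 28.2 CPM in S, RV, RVC and RVT, and SLC17A9, a vesicular nucleotide transporter, at 12.7, 10.1, 0.334 and 1.81. ADRM1 and PSMA7 of the proteasome stood at 282, 322, 37.3 and 28.3 CPM and at 1328, 1418, 411 and 286. Others were not lower in RVT: GID8 stood at 44.2, 39.9, 17.5 and 50.02 CPM, and TCFL5 at 3.84, 4.10, 6.46 and 16.1. Along chromosome 20 from AL035541.1 to the end, with the members themselves left out, log2 ratios to S had a median of 0.05 for RV (32 genes), -1.33 for RVC (33 genes, 4 of them at least 10-fold lower) and -0.18 for RVT (38 genes, 2 of them). Over the whole of chromosome 20, again without members, the medians were -0.68 for RVC and 0.27 for RVT. Over chromosome 8, which carries LINC01419, they were 0.51 and 0.39.

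**Figure D5:**
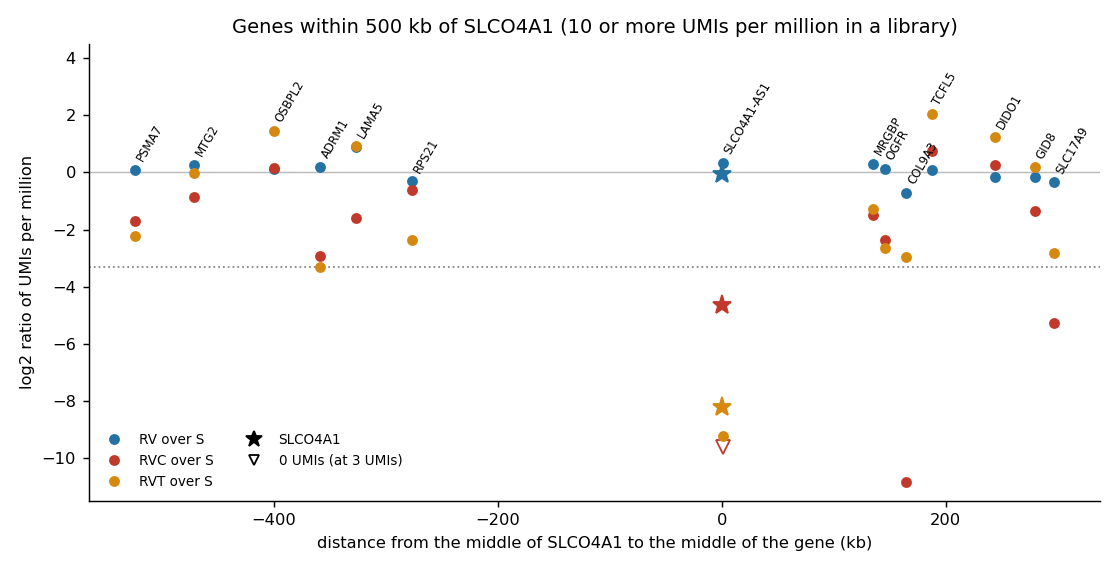
Log2 ratio to S in RV, RVC and RVT of each gene within 500 kb of SLCO4A1, against distance in kb from the middle of SLCO4A1; stars mark SLCO4A1 and the dotted line 10-fold lower. SLCO4A1-AS1, COL9A3 and SLC17A9 pass the line in RVC beside SLCO4A1, and most other neighbours lie above it.

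SLCO4A1 was the one gene of its transporter family with a level above 10 CPM in any library. The other 10 genes of the family stayed under 10 CPM in every library, with the highest, SLCO3A1, at 3.42, 3.85, 8.76 and 9.06 CPM in S, RV, RVC and RVT. Among 27 abundant or melanoma-related lncRNAs, 18 were listed. Of the 8 measured between RVC and S, 2 were at least 10-fold lower in RVC, beside 3.05% of all measured genes and 6.48% of lncRNAs. These were SNHG7 at 363 CPM in S and 14.7 in RVC, and EPB41L4A-AS1 at 224 and 7.22. Of the 9 measured between RVT and S, 0 were 10-fold lower and 2 were 10-fold higher, beside 228 and 186 of 7731 genes. Nothing is read from so few genes. MALAT1, a nuclear lncRNA, stood at 11786, 8969, 25050.3 and 20041 CPM, and NEAT1, the scaffold of paraspeckles, at 465, 774, 1450.0 and 7464. LINC01419 differed from both, which were higher in RVT than in S.

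A few UMIs of the members were found in their low libraries. Between 36 and 103 barcodes of filtered cells were listed in both libraries of a pair. None of the 5 RV and 9 RVT cells with LINC01419 had its barcode listed in another library. The 9 RVT cells had a median of 5134 UMIs, against 2864 in the other RVT cells. They held no UMI of SLCO4A1, KRT81 or UTS2, which stood at 0.395, 93.5 and 1.70 CPM in the other RVT cells. Their CD74 stood at 185 CPM (8 UMIs) and NEAT1 at 3790, against 514 and 7470. Nothing is read from so few cells. In RVT 5 cells with 2 or more UMIs held 15 of the 19 UMIs of LINC01419. By contrast each SLCO4A1 and SLCO4A1-AS1 UMI of RVT lay in a cell of its own. Barcodes left out by the filters had similar levels, with LINC01419 at 174 CPM among those of S and 700.0 among those of RVC, against 0 for RV and 0.692 for RVT.

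Base composition moved with the ratios to S in both combined treatments. Over 6506 genes, Spearman's rho between the log2 ratio and the G and C share of the last 500 exonic bases was 0.01 for RV, -0.35 for RVC and -0.41 for RVT, across genes that share their libraries. The G and C share was 32.8% in LINC01419, 38.2% in LINC00326, 46.2% in AL035541.1, 53.4% in SLCO4A1 and 55.0% in SLCO4A1-AS1. Among genes within 5 percentage points of SLCO4A1-AS1, 4.03% were at least 10-fold lower in RVC than in S and 5.60% in RVT than in S. Around SLCO4A1 the shares were 3.22% and 3.85%, around AL035541.1 1.76% and 0.934%, around LINC00326 0.641% and 0.385%, and around LINC01419 0.732% and 0.517%. The part of base composition in the members' levels was not tested.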

How the data were processed

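Droplet single-cell libraries of A375 cells were made with the Chromium v2 chemistry, 1 library per condition, with up to 4 libraries pooled for sequencing. The authors deposited, per library, a matrix of UMI counts per gene and cell barcode made with Cell Ranger (version not given in the sources used here) on GRCh38, with bcl2fastq 2.20.0.422 named in the submitters' processing notes. The S and RV matrices list 33694 genes and the RVC and RVT matrices 33538. The 32991 in common were used, of which 32913 matched GENCODE 29 by identifier. No count was changed.

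Barcodes with at least 500 genes and at most 20% mitochondrial UMIs were kept. Doublets were scored with scrublet in scanpy 1.11.5. Its own threshold marked 4, 2, 1 and 0 barcodes (S, RV, RVC, RVT) and so did not work, and the highest scores were removed instead at 0.8% per 1000 barcodes (359, 150, 687 and 870 barcodes). Counts were summed over the kept cells to 58519152, 52461572, 32974745 and 25390117 UMIs, and given as CPM, each with an exact Poisson interval (95%). Ratios have conditional binomial intervals and cell shares Clopper-Pearson intervals, all for counting error only. A library at 0 was taken at 3 UMIs (0.0513 to 0.118 CPM). A gene was counted as lower at 10-fold among genes that reached 10 CPM in the higher of both libraries. With 1 library per condition there was no test, and no p-value is given. Correlations were taken over cells on log(1 + UMIs per 10000). Genes ranked in S had at least 10 CPM in S, and genes ranked in RVC had at least 10 CPM in RVC. The fixed lists had no such limit. The steps were tested on simulated data (Python 3.11.15, numpy 2.4.6, pandas 2.3.3, scipy 1.17.1, edgeR 4.0.16 for the trimmed-mean scaling alternative). The genes named were the members, neighbours within 500 kb with at least 10 CPM, the 10 highest and 5 lowest correlations per member in S, the 5 nearest library patterns among genes with at least 20 CPM in S, and fixed lists. ASS1's companions in the 2-fold patterns, UTS2, RPL37A, C15orf48 and FABP6 were named after their values were seen. The members and lists were chosen with earlier results of these data known.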

Additional observations from a re-analysis of the deposited data

Results flagged for a closer look

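LINC01419 moved in opposite directions in the 2 libraries treated with a MEK inhibitor: the log2 ratio to S stood at 2.06 for RVC against -7.97 for RVT. Each condition is 1 library, so the difference between these ratios was not tested beyond counting error.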

How the results depend on the processing

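The 5 counts of members at least 10-fold lower stayed within 1.5 times their main value under every alternative run (35 values), and no ratio changed from a called fall to a rise. RVC against RV rose from 3 to 4 members with a mean over cells or relative to genes of similar GC content, and RVT against RV from 3 to 4 with a minimum of 1000 genes per cell, with TMM library sizes or relative to similar GC content, the fourth being LINC00326. The GC alternative was chosen after seeing the data. Of 175 log2 ratios 13 moved beyond their counting interval. For LINC01419 in RVC over S the range was 1.57 to 2.08, with 1.57 relative to genes of similar GC content and 1.89 with TMM. SLCO4A1 in RV over S ran from -0.11 to 0.06, so its sign depends on the setting. The background share in RV over S was 0.0486% at 50 CPM and 0.574% at 4 UMIs. At 50 CPM it was 4.62% in RVC over S, 4.70% in RVT over S and 4.87% in RVT over RV, and with TMM 5.25% in RVT over S and 5.40% in RVT over RV. Of 80 shares of cells 20 moved, and all 10 correlations between members in S fell on thinning to 1500 UMIs by over 2 times (2.55 to 8.06 times), to between 0.0060 and 0.17. Thinning leaves fewer UMIs of each member per cell, which lowers a correlation by itself, so nothing about depth is read from this fall. Levels under 0.118 CPM cannot be read in RVT, the shallowest library, since 3 UMIs give that level. No paired analysis was possible because each condition is 1 library and no replicate numbers are given.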
